A study of Mus musculus with 8 samples.

Results

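The genes described here encode the AP-1 transcription factors of the FOS family (Fos, Fosb, Fosl1, Fosl2) and the JUN family (Jun, Junb, Jund), and the zinc finger factors Egr1, Egr2 and Egr3. They were chosen by name, with earlier results of these data known, so their counts beside all genes are descriptions. Of these 10 genes, 9 were among the 13677 genes of the expression table, and Fosl1 was not analysed here. Of the 9, 8 passed the filter on low values and were among the 13544 tested genes. Egr2, which did not pass it, is given by its values.

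The data are RNA sequencing of poly(A) RNA from ventricular heart tissue of mice, in 8 libraries labelled C (n = 3), KO (n = 2, numbered 1 and 3) and DKO (n = 3). The series sets ventricles deficient in Vhl beside wild-type ones, in a model with Wt1-Cre. Wt1 marks the epicardium, the outer cell layer of the heart, so such a Cre acts in part of the tissue's cells. The abbreviations are not spelled out in the labels, and neither what sets DKO apart from KO, nor strain, age or the alleles removed are given. No treatment is named.

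AP-1 is a dimer of basic leucine zipper proteins. FOS proteins cannot pair with each other and need a JUN partner, whereas JUN proteins also pair among themselves. Fos, Fosb, Egr1 and Junb are immediate early genes: their promoters are driven by serum response factor, ternary complex factors and CREB within minutes of a stimulus, without new protein synthesis. In the heart they are known to respond to stretch, adrenergic stimulation, ischaemia and tissue handling, while Fosl2 and Jund are more steadily expressed.

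The table held 15028176 to 21202385 reads per library. The library DKO 2 stood apart, with 41.6% of its reads from the mitochondrial genome against 16.2% to 29.9% in the other 7. KO 1 and KO 3 had the lowest shares, 16.2% and 17.4%, against 23.1% to 29.0% in C and 22.9% to 41.6% in DKO. Levels are given in the deposited normalised signal, which is reads per 1000000 of an effective library size. That size divided by the reads was 1.37 and 1.36 in KO, 0.925 to 0.964 in C and 0.705 to 1.06 in DKO. The scaling thus differed between KO and the other groups. The summed signal of 10 cardiomyocyte markers was 64640 to 67951 in C, 40299 and 45108 in KO and 39874 to 65481 in DKO, so the sums of C and KO did not overlap. Myh6, the largest part of the sum, was at 23288.5 in C and 12651.4 in KO on average (adjusted p = 0.26, limma). Of the 10, only Tnni3, cardiac troponin I, passed in KO against C, and it fell (adjusted p = 0.0211, limma). This count of 1 is near the 7.01% of all tested genes called lower. Actc1 and Ttn were the 2 with a positive log2 fold change. The part of these differences in the KO results below was not tested. The sum of 5 atrial markers was 261.7 to 597.4 in C, 2493 and 1637 in KO 1 and KO 3, and 237.1 to 461.5 in DKO. In KO nearly all of it was Nppa (2423 and 1624), while Kcnj3 was lower in KO than in C (8.16 against 28.2 on average; adjusted p = 0.00106, limma) and Myl4, Myl7 and Sln had negative log2 fold changes that did not pass. In whole tissue, fewer cells of a type and less RNA per cell cannot be told apart. The labels do not say whether the libraries of a group are separate animals, and the p-values therefore speak to differences among these libraries, possibly technical ones.

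The AP-1 and EGR genes moved in 3 different ways. Fos, Fosb and Egr1 were highest in the DKO libraries, Fosl2 and Jund were highest in the KO libraries, and Jun and Junb lay above C in both. In KO against C, 4 of 8 tested members rose (Fos, Fosl2, Jun and Jund), beside 6.9% of all tested genes called higher by limma at an adjusted p of 0.05. In DKO against C, 2 of 8 rose (Fos and Fosb), beside 0.0738% of all genes. In DKO against KO, 3 of 8 were higher (Fos, Fosb and Egr1), beside 6.08% of all genes, and 2 were lower (Fosl2 and Jund), beside 5.73%. The members' median log2 fold change was 0.73 in KO against C, 1.12 in DKO against C and 0.26 in DKO against KO, where the median of all tested genes was 0.01 in each. All 8 members' calls may be read beside the 13.9%, 0.155% and 11.8% of genes called in either direction in KO against C, DKO against C and DKO against KO, and beside the 7.01%, 0.0812% and 5.73% called lower. At an unadjusted p under 0.05 there were 5 of 8 members in each comparison, beside 29.1%, 8.5% and 28.9% of all genes. Groups did not overlap for 6, 5 and 5 of 8 members, beside 54.3%, 13.8% and 41.5% of all genes; 6, 5 and 3 of them were higher, beside 27.5%, 6.5% and 20.5%, and 0, 0 and 2 lower, beside 26.7%, 7.25% and 21.1%. DKO and KO are both set against the same C libraries, so these comparisons are not independent. The number of members called was 1 in KO against C when C replicate 1, C replicate 3, KO replicate 1 or KO replicate 3 was left out. It was 5 in DKO against C without DKO replicate 3, and 2 in DKO against KO without KO replicate 3. Leaving out DKO replicate 2, the library with most mitochondrial reads, gave 4, 2 and 5 calls in the 3 comparisons, the same numbers as with it.

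**Figure D1:**
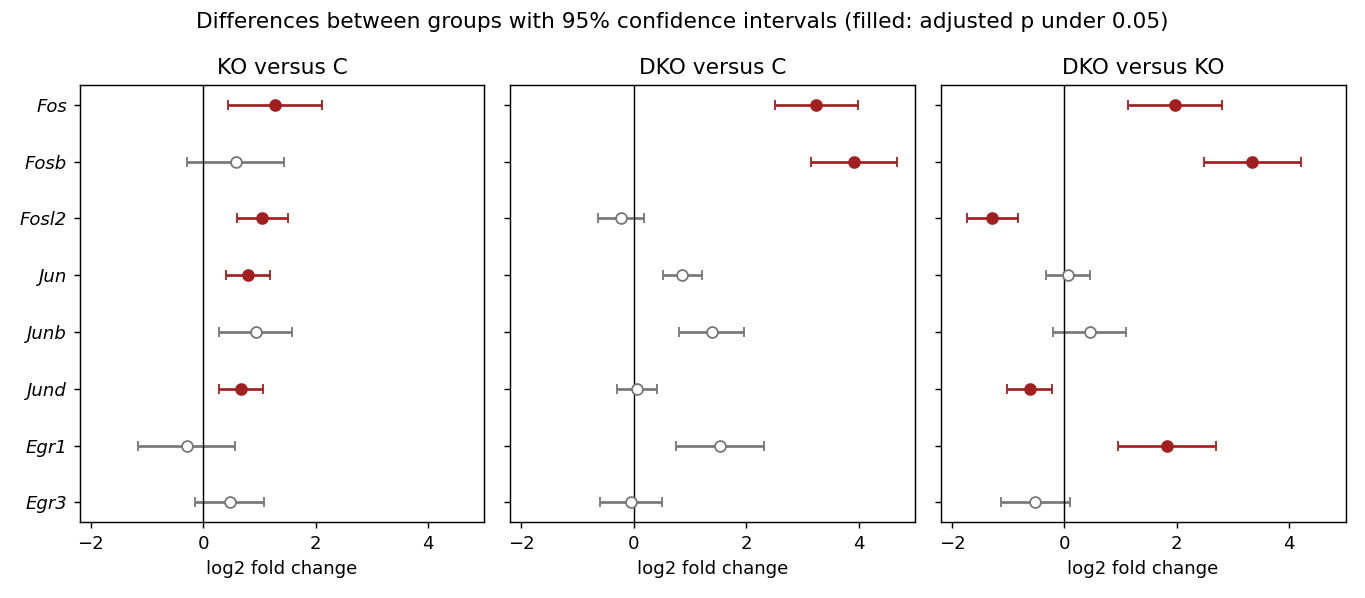
Log2 fold changes on the log2(signal + 1) scale (x axis) of the 8 tested AP-1 and EGR genes (y axis) in KO versus C, DKO versus C and DKO versus KO, with 95% confidence intervals from limma; filled points passed an adjusted p of 0.05. Fos and Fosb stand at 3.24 and 3.92 in DKO versus C, and Fosl2 and Jund lie below 0 in DKO versus KO.

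Fos (ENSMUSG00000021250, chromosome 12, 85473890 to 85477273, GRCm38) encodes the founding FOS protein, the prototype of an immediate early factor. Its signal was 3.77, 5.39 and 1.45 in C 1, C 2 and C 3, 11.5 and 7.37 in KO 1 and KO 3, and 59.2, 35.6 and 27.9 in DKO 1, DKO 2 and DKO 3. The 3 groups did not overlap, and the lowest DKO library was above the highest KO library. Fos rose in DKO by a log2 fold change of 3.24 ± 0.34 (SE; adjusted p = 0.00213, limma), which was the second largest rise of all tested genes after Fosb. It rose in KO by 1.28 ± 0.38 (SE; adjusted p = 0.0440, limma), and was higher in DKO than in KO by 1.97 ± 0.38 (SE; adjusted p = 0.00807, limma). For KO against C Fos no longer passed when C replicate 1 (adjusted p = 0.0799), C replicate 3 (0.129), KO replicate 1 (0.276) or KO replicate 3 (0.111) was left out, nor with a pseudocount of 4 (0.0667), quantile normalisation (0.0654), DESeq2 (0.101) or voom (0.0504). The DKO against KO call ended without KO replicate 3 (adjusted p = 0.107).

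Fosb (ENSMUSG00000003545, chromosome 7, 19302696 to 19310051) encodes FOSB and, by alternative splicing, its shorter stable form, which the gene-level table does not separate. Its signal was 0.520, 1.05 and 0.649 in C, 2.38 and 0.953 in KO 1 and KO 3, and 39.2, 31.5 and 12.6 in DKO. These values rest on 8, 17 and 10 reads in C, 60 and 27 in KO, and 853, 333 and 219 in DKO. C and KO overlapped, while every DKO library lay above every other library. Fosb rose in DKO against C by a log2 fold change of 3.92 ± 0.35 (SE; adjusted p = 0.000504, limma), and the ratio of the mean signals was 37.5. It was higher in DKO than in KO by 3.35 ± 0.39 (SE; adjusted p = 0.000693, limma). Between KO and C the difference was 0.57 with a 95% confidence interval of -0.28 to 1.43 (limma, adjusted p = 0.36). The DKO against C call ended with voom (adjusted p = 0.0813).

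Fosl2 (ENSMUSG00000029135, chromosome 5, 32135801 to 32157842), which encodes FRA-2, went another way. Its signal was 15.2, 14.0 and 12.3 in C, 31.3 and 28.1 in KO 1 and KO 3, and 12.3, 14.8 and 8.56 in DKO. Both KO libraries were above all C and DKO libraries, and C and DKO overlapped. It rose in KO against C by a log2 fold change of 1.05 ± 0.21 (SE; adjusted p = 0.00747, limma) and was lower in DKO than in KO, with a log2 fold change of -1.28 ± 0.21 (SE; limma, adjusted p = 0.00352). The difference between DKO and C was -0.23 with a 95% confidence interval of -0.64 to 0.18 (limma, adjusted p = 0.74). The call against C ended without KO replicate 1 (adjusted p = 0.0691) or KO replicate 3 (0.0563).

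**Figure D2:**
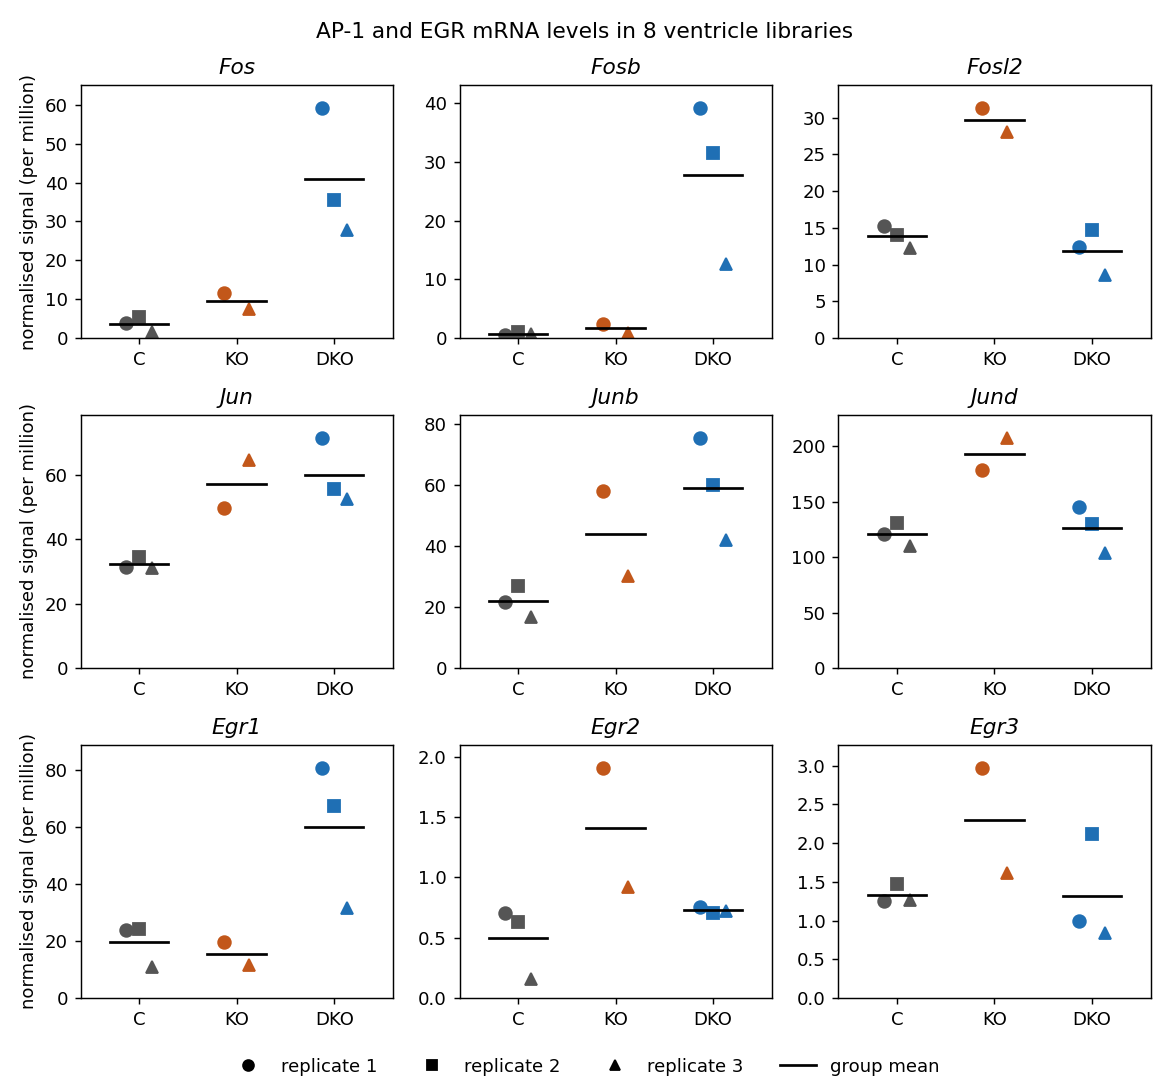
Normalised signal (y axis, linear from 0) of 9 AP-1 and EGR genes in each library by group (x axis); symbols give the replicate number of the labels and lines the group means. Fos, Fosb and Egr1 are highest in DKO, Fosl2 and Jund in KO, and the 3 DKO libraries are spread widely for Fos, Fosb and Egr1, from 12.6 to 39.2 for Fosb.

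Jun (ENSMUSG00000052684, chromosome 4, 95049034 to 95052222, a gene of 1 exon) encodes c-JUN, the main partner of FOS. Its signal was 31.4, 34.6 and 31.0 in C, 49.7 and 64.6 in KO 1 and KO 3, and 71.6, 55.8 and 52.7 in DKO. All KO and DKO libraries were above all C libraries, and KO and DKO overlapped. Jun rose in KO by a log2 fold change of 0.79 ± 0.18 (SE; adjusted p = 0.0136, limma). In DKO the difference from C was of like size, 0.86 ± 0.16 (SE), and did not pass (limma, adjusted p = 0.0835), although only 27 of 13544 genes had a smaller p in that comparison. In KO it no longer passed when C replicate 1 (adjusted p = 0.0559), C replicate 3 (0.0545) or KO replicate 3 (0.163) was left out. In DKO against C it passed without DKO replicate 3 (adjusted p = 0.0355) and with DESeq2 (0.00111). Between DKO and KO the difference was 0.07 with a 95% confidence interval of -0.32 to 0.46.

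Junb (ENSMUSG00000052837, chromosome 8, 84974484 to 84978718) encodes JUNB, a weaker activator than c-JUN that can restrain it. Its signal was 21.7, 27.1 and 16.8 in C, 58.0 and 30.2 in KO 1 and KO 3, and 75.6, 59.98 and 42.0 in DKO. C was below both other groups without overlap. The difference from C was 0.94 ± 0.30 (SE) in KO (limma, adjusted p = 0.0560) and 1.38 ± 0.27 (SE) in DKO (limma, adjusted p = 0.0959), so neither passed. In KO against C it passed with edgeR (adjusted p = 0.0419), with DESeq2 (0.0110), in a fit of these groups only (0.0213), with scaling to total (0.00440) or non-mitochondrial reads (0.00607), and without DKO replicate 1 (0.0415), DKO replicate 3 (0.0341) or KO replicate 3 (0.0453). In DKO against C it passed with DESeq2 (adjusted p = 0.000271), with scaling to non-mitochondrial reads (0.0489) and without DKO replicate 3 (0.0324). The annotated Junb locus overlaps Prdx2 on the opposite strand, whose signal was 351.0 ± 14.1 (SD, n = 3) in C, 246.2 ± 26.5 (SD, n = 2) in KO and 274.4 ± 49.6 (SD, n = 3) in DKO. Strand use in the counting is not given in the sources used here.

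Jund (ENSMUSG00000071076, chromosome 8, 70698949 to 70700616) encodes JUND, the JUN protein that is abundant in resting heart muscle. Its signal was 120.5, 130.8 and 110.4 in C, 178.5 and 207.5 in KO 1 and KO 3, and 144.9, 129.5 and 103.8 in DKO. As for Fosl2, both KO libraries were above all others, and C and DKO overlapped. Jund rose in KO against C by a log2 fold change of 0.67 ± 0.18 (SE; adjusted p = 0.0296, limma), and its log2 fold change in DKO against KO was -0.62 ± 0.18 (SE; limma, adjusted p = 0.0464). Its difference between DKO and C was 0.05 with a 95% confidence interval of -0.30 to 0.41. The KO against C call was lost when any of the 5 libraries compared was left out: C replicate 1 (adjusted p = 0.0947), C replicate 2 (0.0660), C replicate 3 (0.115), KO replicate 1 (0.0805) and KO replicate 3 (0.221). In DKO against KO it ended without C replicates 1, 2 or 3 (0.0850, 0.0827 and 0.0763), DKO replicate 3 (0.0929), KO replicate 1 (0.113) or KO replicate 3 (0.291), and with median centring (0.0567), edgeR (0.0511), voom (0.0554) or a fit of these groups only (0.157). Gm11175, on the opposite strand of the Jund locus, had a signal of 2.28 ± 0.702 (SD, n = 3) in C, 0.0579 ± 0.0573 (SD, n = 2) in KO and 1.14 ± 1.28 (SD, n = 3) in DKO.

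Shown are the 4 tested members above C in every DKO library for which a start site was matched. Each is given by the 120 bases before that start, read 5′ to 3′ on the gene's strand. None of the patterns marked below was found in all 4. Promoter sequences are RefSeq windows on GRCm38.p6, and symbols of 7 members matched (Fos, Fosb, Fosl2, Jun, Junb, Jund and Egr2), while Fosl1, Egr1 and Egr3 did not. Capitals mark the letters TGACG, the core of a CREB and ATF site, TGACNTCA, a full site with 1 open base, and GCGNGGGCG, an EGR site. The stretches lie at chr12:85473770-85473889 (+), chr7:19310046-19310165 (-), chr4:95052223-95052342 (-) and chr8:84978749-84978868 (-) in the order printed.
Fos: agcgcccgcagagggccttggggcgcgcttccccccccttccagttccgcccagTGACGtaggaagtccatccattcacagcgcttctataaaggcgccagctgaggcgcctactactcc
Fosb: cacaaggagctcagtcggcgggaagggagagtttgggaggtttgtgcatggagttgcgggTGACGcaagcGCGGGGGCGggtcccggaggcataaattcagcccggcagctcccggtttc
Jun: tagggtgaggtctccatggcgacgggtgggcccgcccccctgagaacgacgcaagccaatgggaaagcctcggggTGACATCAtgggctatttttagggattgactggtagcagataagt
Junb: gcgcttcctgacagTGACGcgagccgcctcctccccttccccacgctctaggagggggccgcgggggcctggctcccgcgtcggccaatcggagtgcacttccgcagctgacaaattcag

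In Fos the letters TGACG began 66 bases before the start (and again at 129, outside the stretch shown), in Fosb 60 bases and in Junb 106 bases before it, all on the gene's strand. Egr2, which did not have the high DKO values of these genes, also held TGACG, 111 and 55 bases before 1 of its starts, the second on the other strand. Jun held TGACATCA 45 bases before its start. Within 250 bases of the start, on either strand, TGACG stood in 17.8% of 32851 promoter windows, TGACNTCA in 7.49% and GCGNGGGCG in 4.70%. Where TGACG is followed by TCA, the first 2 patterns overlap. GCGNGGGCG also stood 79 bases before the start of Fosl2. The full site TGACGTCA (1.55% of windows) and the AP-1 site TGANTCA (6.75%) were in no window of the matched members. The Jund window, however, ended at base 70697738, upstream of the annotated start of Jund at 70698949. For Jund, for Junb and for some windows of Egr2, the bases after the window's start site were not found in the gene's annotated transcripts. Presence or absence of a site there need not hold for the annotated start. The CArG box, the serum response factor site, was found in windows of Egr2 only among these members (1.47% of all windows), reading CCATATATGG 72 bases before 1 of its starts. The search for TGACG was added after the sequences had been read. These matches are letters in a short window and no measurement of binding.

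Egr1 (ENSMUSG00000038418) encodes an immediate early zinc finger factor that binds GC-rich sites. Its signal was 23.8, 24.2 and 11.03 in C, 19.5 and 11.4 in KO 1 and KO 3, and 80.9, 67.6 and 31.6 in DKO. C and KO overlapped, and the lowest DKO library was above all of them. Egr1 was higher in DKO than in KO by a log2 fold change of 1.83 ± 0.40 (SE; adjusted p = 0.0133, limma), a call that ended without KO replicate 3 (adjusted p = 0.165). Against C the difference in DKO was 1.53 ± 0.36 (SE) and did not pass (limma, adjusted p = 0.24). It passed without DKO replicate 3 (adjusted p = 0.0308) and with DESeq2 (0.00179). In KO against C it was -0.30 with a 95% confidence interval of -1.17 to 0.57 (limma, adjusted p = 0.67). Fos was thus above C in KO while Egr1 was not, but the difference between these genes was not tested.

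Egr2 and Egr3, relatives of Egr1 with important parts in Schwann cells and muscle spindles, were near the lower limit of the table. Egr3 had a signal of 1.26, 1.48 and 1.27 in C, 2.97 and 1.61 in KO, and 0.988, 2.12 and 0.835 in DKO, from 14 to 75 reads a library. Its differences were 0.47 (95% confidence interval -0.14 to 1.08) in KO against C and -0.05 (-0.59 to 0.49) in DKO against C, and neither passed (limma, adjusted p = 0.30 and 0.97). With scaling to total reads Egr3 passed in KO against C (adjusted p = 0.0236) and in DKO against KO (0.00970). Egr2 had 0.704, 0.633 and 0.154 in C, 1.91 and 0.919 in KO, and 0.758, 0.708 and 0.720 in DKO, from 2 to 48 reads. Both KO libraries were above the other 6 for Egr2, but it reached a signal of 1 in KO 1 alone. Without the filter its difference in KO against C was 0.68 ± 0.27 (SE) and did not pass (limma, adjusted p = 0.11). Neither Egr2 nor Egr3 showed the high DKO values of Egr1.

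Signal per kilobase of the longest annotated transcript allows levels to be compared between genes. Jund was the most abundant member in all groups, with 72.3 ± 6.11 (SD, n = 3) in C, 116 ± 12.3 (SD, n = 2) in KO and 75.6 ± 12.4 (SD, n = 3) in DKO. In C it was followed by Junb (12.1), Jun (10.1), Egr1 (4.39), Fosl2 (2.12), Fos (1.68), Egr3 (0.338), Fosb (0.196) and Egr2 (0.168). Junb and Jun, Fosl2 and Fos, and Fosb and Egr2 overlapped between C libraries, so their order is not settled. In DKO the order was Jund, Junb (32.7), Fos (19.4), Jun (18.8), Egr1 (13.4), Fosb (7.35), Fosl2 (1.82), Egr3 (0.334) and Egr2 (0.246). There the range of each neighbour from Junb to Fosb overlapped with the next, while Fosb lay above Fosl2 without overlap. Within every DKO library, however, Junb was above Fos, Jun above Egr1 and Egr1 above Fosb. Fos was above Jun in DKO 1 only, and Egr3 above Egr2 in DKO 2 only. In KO the order after Jund was Junb (24.4), Jun (17.9), Fosl2 (4.54), Fos (4.47), Egr1 (3.45), Egr3 (0.582), Egr2 (0.477) and Fosb (0.441). Ranges overlapped there between Junb and Jun, from Fosl2 to Egr1, and among the last 3. Within both KO libraries Fos was above Egr1, Egr3 above Egr2 and Egr2 above Fosb.

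The make-up of the FOS family differed between the libraries. Its summed signal per kilobase was 3.99 ± 1.14 (SD, n = 3) in C, 9.45 ± 2.00 (SD, n = 2) in KO and 28.6 ± 11.3 (SD, n = 3) in DKO. Fosl2 made up 54.7%, 43.0% and 68.7% of it in C, 44.1% and 53.4% in KO 1 and KO 3, and 4.68%, 8.22% and 7.33% in DKO. Fosb made up 3.24% to 6.25% in C, 5.80% and 3.14% in KO, and 25.7%, 30.3% and 18.7% in DKO. The FOS pool in KO was thus larger than in C with shares that overlapped those of C, and in DKO it was mostly Fos and Fosb. In the JUN family, whose sum was 94.5 ± 9.52 (SD, n = 3), 158 ± 4.74 (SD, n = 2) and 127.1 ± 24.6 (SD, n = 3) in C, KO and DKO, Jund made up 75.2% to 77.7% in C, 69.2% and 77.1% in KO and 57.5% to 61.0% in DKO. Egr1 made up 86.8% to 90.5% of the EGR sum in C, 75.7% and 78.0% in KO, and 93.9% to 97.3% in DKO. These sums and shares are descriptions with no test, and mRNA shares are not protein shares.

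**Figure D3:**
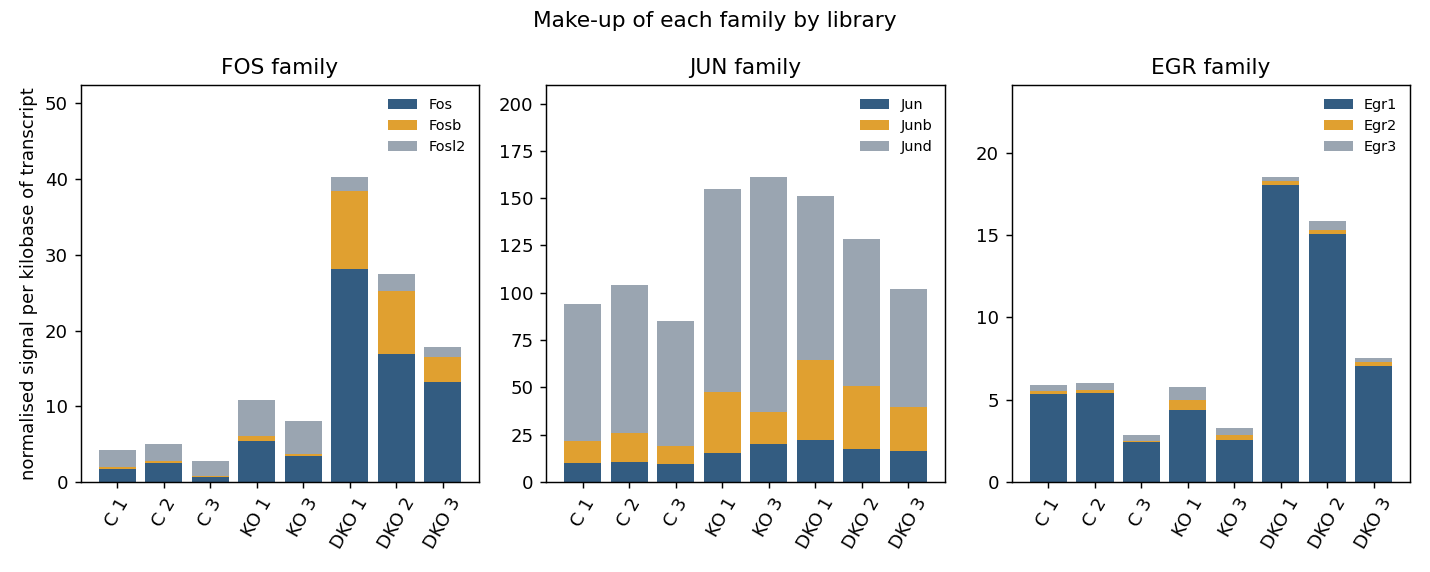
Normalised signal per kilobase of transcript (y axis) of each member, stacked within the FOS, JUN and EGR families, for each of the 8 libraries (x axis). Fos and Fosb fill most of the FOS bar in the 3 DKO libraries, and Jund most of the JUN bar in all 8.

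Members also shared an order of libraries within groups. DKO 1 was the highest DKO library for 7 of 9 members (29.3% of all tested genes) and DKO 3 the lowest for 8 of 9 (35.5%). C 3 was the lowest C library for 7 of 9 members (36.2% of all tested genes), and KO 1 the higher KO library for 7 of 9 (51.2%). Jun and Jund were the members higher in KO 3 than in KO 1. C 3 and DKO 3 were also lowest, and DKO 1 and KO 1 highest, in the summed signal of 10 fibroblast markers, while C 1 and not C 2 was the highest C library there: 821.5, 692.3 and 564.1 in C 1, C 2 and C 3, 1624 and 1296 in KO 1 and KO 3, and 1265, 1026 and 589.0 in DKO 1, DKO 2 and DKO 3. Myl4, Myl7 and Sln, atrial markers, were each highest in C 2, KO 1 and DKO 1 and lowest in C 3, KO 3 and DKO 3. Myl7 had 4.50, 57.2 and 1.02 in C 1, C 2 and C 3, and 26.6 and 0.988 in KO 1 and KO 3. In DKO 1, DKO 2 and DKO 3 it had 16.1, 6.37 and 0.374. The atrial markers Nppa and Kcnj3 did not keep this order in every group. C 2 was the highest C library for 7 of 9 members (31.2% of all tested genes). Genes of the same library are not independent observations, so these counts of members are descriptions. The part of cell make-up and of atrial tissue in the order of libraries was not tested.

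**Figure D4:**
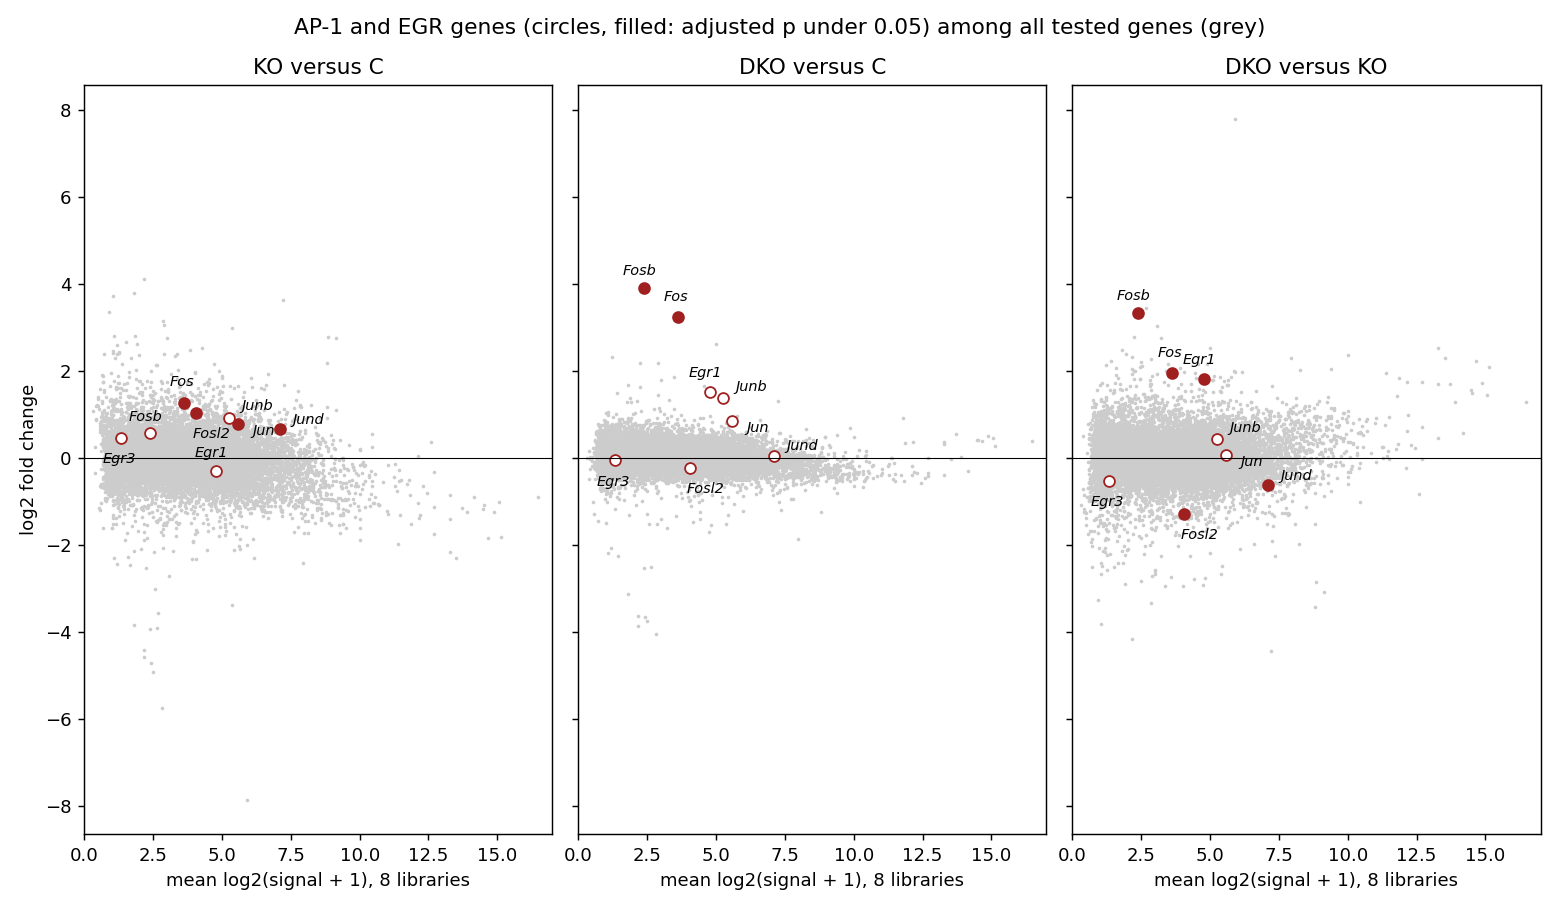
Log2 fold change (y axis) against mean log2(signal + 1) over the 8 libraries (x axis) of 13544 tested genes in grey, with the 8 tested AP-1 and EGR genes as circles, filled where the adjusted p was under 0.05. In DKO versus C, Fosb and Fos have the largest rises of all genes, while in KO versus C the members lie inside the spread of many changed genes.

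Other proteins that pair or compete with AP-1 were taken from a list of 15 tested basic leucine zipper genes. In KO against C 3 of 15 rose, beside 6.9% of all tested genes: Maff, a small MAF protein without an activation domain (8.50 ± 0.874 in C, 15.2 ± 0.0368 in KO), its relative Mafk (32.2 ± 3.50 in C, 49.0 ± 3.01 in KO), and Atf1, a CREB relative (15.3 ± 0.709 in C, 25.4 ± 1.73 in KO; SD, n = 3 and n = 2). The same 3 were lower in DKO than in KO, beside 5.73% of all genes (limma, adjusted p = 0.00459 for Maff, 0.00807 for Mafk and 0.0251 for Atf1), as were Fosl2 and Jund. Atf3, a stress-induced partner of JUN, had 4.19, 4.31 and 4.29 in C, 6.71 and 6.05 in KO, and 14.1, 8.64 and 6.02 in DKO. Its DKO libraries were above those of C, and the difference of 0.94 did not pass (limma, adjusted p = 0.33).

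Among 13 tested regulators of these promoters (serum response factor, its cofactors and the CREB group), limma called 0 in each comparison. Of all tested genes it called 13.9% in KO against C, 0.155% in DKO against C and 11.8% in DKO against KO. At an unadjusted p under 0.05 there were 2, 0 and 5 of the 13 in these comparisons, beside 29.1%, 8.5% and 28.9% of all genes. edgeR called 1, 0 and 1 of them, DESeq2 1, 0 and 1, and voom 0 in each. Srf itself had 54.8 ± 4.72 (SD, n = 3) in C, 84.3 ± 16.4 (SD, n = 2) in KO and 58.0 ± 10.1 (SD, n = 3) in DKO (limma, adjusted p = 0.0538 in KO against C). Of 4 tested EGR corepressors and relatives, 1 rose in KO against C, beside 6.9% of all genes called higher. It was Wt1, which binds EGR-like sites, with a log2 fold change of 0.94 (adjusted p = 0.0302, limma). Nab2, a corepressor that EGR1 induces, had 6.95 ± 0.798 in C and 9.20 ± 2.66 in DKO (SD, n = 3; limma, adjusted p = 0.68).

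Of 24 MAP kinase pathway genes, 2 rose in KO against C, a share near the 6.9% of all genes called higher: Map2k1, encoding the kinase MEK1 (22.3 ± 3.37 in C, 36.4 ± 4.12 in KO), and Map2k4, encoding a kinase of the JNK arm (20.3 ± 1.03 in C, 29.97 ± 1.72 in KO; SD, n = 3 and n = 2). In DKO against KO 2 were higher, near the 6.08% of all genes, Rps6ka2 (limma, adjusted p = 0.00718) and Mapk14, encoding p38 alpha (limma, adjusted p = 0.0304). Of 9 dual specificity phosphatases, which switch MAP kinases off, 1 rose and 1 fell, beside 6.9% of all genes called higher in KO against C and 5.73% called lower in DKO against KO. Dusp5 rose in KO against C (3.63 ± 0.0765 to 6.16 ± 0.553; SD, n = 3 and n = 2; limma, adjusted p = 0.0347), and Dusp8 was lower in DKO than in KO (limma, adjusted p = 0.0217). Of 8 genes of JUN turnover and cofactors, Fbxw7, a ubiquitin ligase subunit that targets c-JUN, was the 1 higher in DKO than in KO (limma, adjusted p = 0.0464), beside 6.08% of all genes.

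In DKO against C, where Fos and Fosb rose most, limma called 0 genes in each of these 6 lists, beside 0.155% of all genes called and 8.5% with an unadjusted p under 0.05. These counts are therefore no result about the lists. At an unadjusted p under 0.05 there were 2 of 15 partners, 0 of 13 regulators, 0 of 4 EGR relatives, 2 of 24 kinases, 2 of 9 phosphatases and 2 of 8 turnover genes. edgeR and voom called 0 in each, and DESeq2 called 1, Atf3. The same comparison gave 0 of 22 reported AP-1 target genes in limma (3 at an unadjusted p under 0.05, 0 with edgeR and voom, 1 with DESeq2) and 0 of 18 reported EGR1 target genes (2 at an unadjusted p under 0.05, 0 with edgeR and voom, 1 with DESeq2), beside the same shares of all genes. The median log2 fold changes of both target lists were 0.24 and 0.21, beside 0.01 for all tested genes.

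In KO against C, 11 of 22 reported AP-1 target genes rose and the others did not pass, with a median of 0.80, beside 6.9% of all genes called higher and a median of 0.01. They included Timp1, an inhibitor of metalloproteinases, with 3.03, 2.44 and 1.39 in C and 12.9 and 7.78 in KO (limma, adjusted p = 0.00265). In DKO, where Fos and Fosb were highest and Fosl2 and Jund overlapped C, Timp1 was at 2.69, 4.48 and 2.62, overlapping C (limma, adjusted p = 0.69 against C). In DKO against KO, 8 of the 22 were lower and 1 was higher, with a median log2 fold change of -0.51, beside 5.73% and 6.08% of all genes and a median of 0.01. In that comparison Fos, Fosb and Egr1 were higher, while Fosl2 and Jund, which had risen in KO against C, were lower. The part of any member in these genes was not tested. Of 18 reported EGR1 target genes 2 rose in KO against C, among them Thbs1, encoding the matricellular protein thrombospondin, and 1 fell, Sod1, encoding a superoxide dismutase. These counts are near the 6.9% of all genes called higher and the 7.01% called lower. The target lists are textbook assignments from other tissues and were not measured here as targets. In KO against C 5 of 10 fibroblast markers also rose, beside 6.9% of all genes, with Col1a1 at 63.5 ± 7.53 (SD, n = 3) in C and 244 ± 20.3 (SD, n = 2) in KO.

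Genes most like a member were taken as the 3 named genes with the highest Pearson correlation of log2(signal + 1) over the 8 libraries, given without a p since the groups themselves form clusters. For Fos they were Uap1l1 (r = 0.98), the orphan receptor gene Nr4a1 (0.96) and the basement membrane collagen gene Col4a6 (0.96). Nr4a1 and Col4a6 were also among those of Junb (0.96 and 0.97), with Socs3, a cytokine feedback inhibitor (0.95). Fosl2 went with Picalm, a clathrin assembly gene (0.997), the glutathione reductase gene Gsr (0.99) and the matricellular gene Ccn3 (0.98). Jund went with Spry4, an inhibitor of receptor tyrosine kinase signalling (0.99), Dock1 (0.98) and Crim1 (0.98). Spry4 had 7.62, 8.11 and 6.27 in C, 15.6 and 17.7 in KO, and 9.91, 8.73 and 5.91 in DKO, the same grouping as Jund. Jun went with Vav1 (0.96), Megf6 (0.95) and Smim3 (0.95). The genes most like Fosb and Egr1 were of low level, such as Ntrk3 (0.97) for Fosb and Gfra2 (0.97) for Egr1. Col4a6 was low as well, at 0.497 in C and 1.70 in DKO on average.

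Of 27 other immediate early genes, 2 rose in DKO against C, Arc (1.60 ± 0.208 to 11.003 ± 1.72; SD, n = 3) and Nr4a1 (8.23 ± 1.32 to 17.3 ± 1.99; SD, n = 3), beside 0.0738% of all genes, and 7 rose in KO against C, beside 6.9%, among them Ccn2 (52.1 ± 14.1 to 186 ± 9.42; SD, n = 3 and n = 2). Ccn2 and Ier3 were among 4 lower in DKO than in KO, and Arc was the 1 that was higher (adjusted p = 0.000303, 0.000273 and 0.000348, limma), beside 5.73% and 6.08% of all genes.

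Values of other lists moved with these groups. Of 12 heat shock genes, Hspa1a and Hspa1b rose in DKO against C (3.26 ± 1.08 to 14.1 ± 5.04 and 2.47 ± 0.575 to 14.8 ± 2.84; SD, n = 3), while 9 of the 12 had a negative log2 fold change. Both also rose in KO against C, to 8.19 ± 0.699 and 6.95 ± 0.498 (SD, n = 2; adjusted p = 0.0194 and 0.00386, limma), among 4 of 12 that rose and 1 that fell there. How reads divide between these near-identical paralogs is uncertain. The summed heat shock signal was 2291 to 2458 in C, 2245 and 2469 in KO, and 1460 to 2220 in DKO. Of 12 skeletal muscle markers, 8 fell in DKO against C and 11 in KO against C. Their sums were 4289 to 5243 in C, 3323 and 3842 in KO, and 2416 to 4918 in DKO. Most of each sum was Ckm and Acta1, and Acta1 was the 1 marker with a positive log2 fold change in KO against C. Myh4 was at 66.5, 17.4 and 128 in C 1, C 2 and C 3, and at 3.24, 4.77 and 0.490 in DKO 1, DKO 2 and DKO 3. Myh2 and Myh4 were at 0 reads in both KO libraries. Of 7 epicardial and mesothelial markers 4 rose in KO against C, with sums of 9.24 to 15.3 in C, 33.3 and 34.1 in KO and 10.7 to 17.9 in DKO, and of 10 macrophage markers 1 rose, with sums of 222.1 to 239.7, 301.5 and 325.5, and 232.4 to 309.0. These counts stand beside 6.9% of all tested genes called higher and 7.01% called lower in KO against C, and 0.0738% and 0.0812% in DKO against C. The 1 macrophage marker that rose and the 1 heat shock gene that fell are near these shares and are no result about their lists. The part of what these lists mark in the AP-1 and EGR levels was not tested.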

How the data were processed

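RNA of 8 ventricle samples was sequenced. Cutadapt, RSEM 1.3.1, limma and GRCm38 are listed, without roles, per the submitters' processing notes; neither annotation nor strandedness is stated there. The deposited values are a normalised signal: reads plus 0.5 per 1000000 of an effective library size. This was read from the values themselves, since 100% came out as whole reads within a tolerance of 0.001 reads. A gene without reads could still hold up to 3, a signal of 0.104 to 0.283 without the added 0.5 (counting error only).

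Tested genes had a signal of 1 or more in 2 or more libraries. limma 3.58.1 (R 4.3.3) was fitted to log2(signal + 1) with an intensity trend and 3 group means over 8 libraries, with Benjamini-Hochberg adjustment over 13544 genes and a threshold of 0.05. Fold changes on this scale understate changes of low genes. Alternatives were edgeR 4.0.16, DESeq2 1.42.0 and voom on the recovered reads, other scalings, filters and pseudocounts, a replicate block, and leaving out each library; the fit was tested on simulated data. GENCODE M21 (GRCm38) gave coordinates and transcript lengths and matched 13671 of 13677 identifiers. Members and gene lists were chosen with earlier results of these data known. The genes named are all members, genes among the 3 most like each, and per list and comparison genes among the 3 called with the largest change, or the gene with the smallest p where none was called. Nab2, Prdx2, Gm11175 and other list genes outside this rule were chosen after their values were seen. Of the target lists, 1 further gene is not reported here.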

Additional observations from a re-analysis of the deposited data

How the results depend on the processing

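Of the 8 tested members, Fos and Fosb in DKO against C kept their direction in all 21 alternatives, Fos with every call and Fosb with every call but that of voom; in DKO against KO, Fosb and Fosl2 kept every call. The median log2 fold change of all genes, 0.01 in each comparison, was 0.48 in KO against C, -0.09 in DKO against C and -0.57 in DKO against KO with scaling to total reads, and 0.35, 0.02 and -0.33 with scaling to non-mitochondrial reads. Under total reads 4806 genes were called in KO against C (4611 higher, 195 lower) and 6205 in DKO against KO (206 higher, 5999 lower), and under non-mitochondrial reads 4061 (3689 higher, 372 lower) and 3768 (396 higher, 3372 lower), where the deposited scaling gave 1883 (934 and 949) and 1599 (823 and 776). A fit of only the groups compared called 3606 and 730. In DKO against C, with 21 genes called, DESeq2 called 69 genes and 5 members, and voom 7 genes and 1 member. Some differences changed sign with the scaling. Under the deposited scaling Egr1 in KO against C was -0.30, Jund in DKO against C 0.05, and Jun and Junb in DKO against KO 0.07 and 0.45, none of which passed. With total reads they were 0.21, -0.065, -0.58 and -0.20, and with non-mitochondrial reads Egr1 was 0.063 and Jun -0.30. Leaving out 1 library at a time gave 449 to 2966 genes and 1 to 5 members called in KO against C, 4 to 90 and 2 to 5 in DKO against C, and 334 to 1991 and 2 to 5 in DKO against KO. Over the same fits Egr1 in KO against C ranged from -0.66 to 0.065, Jund in DKO against C from -0.052 to 0.19 (-0.01 without C replicate 3), Egr3 from -0.29 to 0.10 (0.04 without DKO replicate 1), and in DKO against KO Jun from -0.12 to 0.25 (-0.06 without DKO replicate 1) and Junb from -0.012 to 0.91. The cause of these changes was not tested. With the replicate number as a block, 5, 4 and 4 members were called in KO against C, DKO against C and DKO against KO, among 1794, 21 and 1269 genes. Under the block Junb passed in KO against C (adjusted p = 0.00962), Junb and Egr1 passed in DKO against C (0.0145 and 0.00472), and Jund no longer passed in DKO against KO (0.0617). Whether the numbers pair the libraries is not settled by these values. Deviations from the group means of same-numbered C and DKO libraries correlated at 0.19, -0.27 and 0.14, those of C and KO at 0.22 and 0.14, and those of DKO and KO at -0.01 and 0.10. Not every library correlated best with its own number. The deviations of the 2 KO libraries mirror each other, so their correlations with any library differ in sign only. With lengths from the union of annotated exons in place of the longest transcript, the FOS and JUN sums in KO were 7.34 and 152.8 per kilobase. Fos then made up 54.0% of the FOS sum in KO and 75.6% in DKO, Fosb 18.7% in DKO, Junb 10.2% of the JUN sum in C and 21.1% in DKO, Jund 78.7% and 63.1%, and in KO Egr1 made up 78.9% and Egr3 11.8% of the EGR sum. Depth limits Egr2, Egr3 and, outside DKO, Fosb, and 2 KO libraries limit every comparison with KO.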
